A study of Mus musculus with 6 samples.

Results

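The canonical, replication-dependent histone genes were followed in Ter119-positive bone marrow cells of wild type and mDia2 knockout mice. Members were the gene symbols that begin with Hist1h to Hist4h and whose probe had a detection p-value under 0.05 on at least 3 of the 6 arrays, with 1 probe per symbol, that with the highest mean signal. This gave 51 genes of 59 such symbols on the array and of 11567 genes tested in all. They comprised 3 H1, 15 H2A, 12 H2B, 9 H3 and 12 H4 genes, and 41 belonged to the Hist1, 9 to the Hist2 and 1 to the Hist4 cluster. All 51 were detected on all 6 arrays, so no member entered through only 1 genotype.

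Cells had been sorted for Ter119, a surface antigen of erythroid cells, from the bone marrow of 6 C57BL/6 mice aged 4 months. Illumina bead arrays were hybridised with labelled cRNA, 1 array per mouse. Of the mice 3 were wild type and 3 carried a conditional deletion of mDia2, the actin-nucleating formin encoded by Diaph3, and are called knockout mice here. The promoter that drives the deletion and the genotype of the wild type mice beyond that word are not given in the sources used here. Mice are described as biological replicates in the design text.

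Histones are the proteins around which DNA is wound. H2A, H2B, H3 and H4 form the core of the nucleosome and H1 binds the linker DNA at its entry and exit. Canonical histone genes lie in clusters, are transcribed mainly in S phase, and most of their mRNAs end in a conserved stem-loop bound by SLBP instead of a poly(A) tail; a part of them is also made as polyadenylated mRNA, in differentiated cells in particular. The amplification kit named in the labels primes cDNA synthesis from poly(A) tails, and the share of each histone mRNA that carried a tail was not measured here. In mouse erythroblasts the chromatin condenses through the last divisions before the nucleus is expelled, and part of the core histones leaves the nucleus in that time.

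Promoter sequences are shown for the members on which the results below turn, with the 250 bases before and 50 bases after the RefSeq start of assembly GRCm38.p6, read 5′ to 3′ along the gene. They stand for the members with the smallest p in H4 (Hist1h4f, now H4c6), H2A (Hist2h2aa1, now H2ac18) and H3 (Hist2h3c1, now H3c14), for Hist1h2ac (now H2ac6), the neighbour of Hist1h2bc, which has no entry of its own, for the H1 genes Hist1h1b (now H1f5) and Hist1h1c (now H1f2), and for Hist2h2aa2 (now H2ac19), a copy of Hist2h2aa1. Capitals mark exact matches, on either strand, to the TATA box TATAAA, the CCAAT box CCAAT, the octamer ATTTGCAT known from H2B promoters and the H1 box AAACACA. In the order below the windows lie at chr13:23551619-23551918 (minus strand), chr13:23683910-23684209 (minus), chr3:96245247-96245546 (plus), chr3:96240325-96240624 (minus), chr3:96246435-96246734 (plus), chr13:21780576-21780875 (minus) and chr13:23738557-23738856 (plus).
Hist1h4f: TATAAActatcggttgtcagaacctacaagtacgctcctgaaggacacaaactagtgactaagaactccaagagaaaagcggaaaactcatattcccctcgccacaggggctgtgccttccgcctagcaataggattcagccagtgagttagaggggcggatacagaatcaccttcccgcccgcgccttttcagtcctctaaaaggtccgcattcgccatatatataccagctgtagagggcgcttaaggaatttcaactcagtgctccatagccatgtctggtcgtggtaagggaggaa
Hist1h2ac: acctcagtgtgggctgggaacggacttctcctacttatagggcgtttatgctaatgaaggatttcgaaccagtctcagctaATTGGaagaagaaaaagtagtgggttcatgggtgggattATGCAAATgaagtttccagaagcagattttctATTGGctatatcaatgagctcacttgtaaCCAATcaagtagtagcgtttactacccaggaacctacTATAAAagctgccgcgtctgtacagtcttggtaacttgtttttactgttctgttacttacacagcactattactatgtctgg
Hist2h2aa1: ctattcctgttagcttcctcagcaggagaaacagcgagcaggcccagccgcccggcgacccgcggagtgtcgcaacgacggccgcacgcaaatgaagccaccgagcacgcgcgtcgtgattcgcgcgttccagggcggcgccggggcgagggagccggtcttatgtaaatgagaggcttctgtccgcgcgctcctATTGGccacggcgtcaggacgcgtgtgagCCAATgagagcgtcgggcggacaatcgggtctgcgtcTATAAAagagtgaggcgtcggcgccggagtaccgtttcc
Hist2h2aa2: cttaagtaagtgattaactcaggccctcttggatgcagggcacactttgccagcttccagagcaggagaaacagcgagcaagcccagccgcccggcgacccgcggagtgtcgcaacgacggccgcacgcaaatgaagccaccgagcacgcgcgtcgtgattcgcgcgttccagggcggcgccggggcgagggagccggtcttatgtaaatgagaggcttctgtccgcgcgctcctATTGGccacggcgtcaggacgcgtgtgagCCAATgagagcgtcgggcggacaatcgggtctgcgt
Hist2h3c1: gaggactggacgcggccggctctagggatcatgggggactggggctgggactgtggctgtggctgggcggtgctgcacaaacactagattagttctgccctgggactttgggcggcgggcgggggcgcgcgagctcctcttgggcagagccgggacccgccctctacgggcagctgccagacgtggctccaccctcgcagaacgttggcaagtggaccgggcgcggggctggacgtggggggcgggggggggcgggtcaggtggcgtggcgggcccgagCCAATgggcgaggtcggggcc
Hist1h1b: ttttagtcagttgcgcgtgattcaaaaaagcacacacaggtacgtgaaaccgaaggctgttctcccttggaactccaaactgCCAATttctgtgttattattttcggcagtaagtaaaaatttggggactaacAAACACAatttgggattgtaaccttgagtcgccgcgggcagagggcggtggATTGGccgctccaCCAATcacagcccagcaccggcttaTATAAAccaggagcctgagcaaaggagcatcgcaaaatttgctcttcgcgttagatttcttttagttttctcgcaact
Hist1h1c: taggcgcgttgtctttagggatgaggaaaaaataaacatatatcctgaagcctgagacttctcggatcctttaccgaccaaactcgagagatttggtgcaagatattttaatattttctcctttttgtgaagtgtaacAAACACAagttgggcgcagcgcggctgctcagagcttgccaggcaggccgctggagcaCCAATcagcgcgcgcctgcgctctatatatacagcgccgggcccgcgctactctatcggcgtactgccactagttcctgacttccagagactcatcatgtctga

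All 51 symbols matched exactly 1 RefSeq gene by name or synonym, and 46 of them had a promoter entry, 47 windows in all. The TATA box letters were in 26 of the 47 windows (55.3%), against 13.6% of all 32851 promoter windows. A CCAAT box was in every H1, H2A, H2B and H3 window (3, 15, 11 and 7 windows) and in 3 of 11 H4 windows, 83.0% of histone windows against 37.4% of all. The octamer was in 6 of 11 H2B and 5 of 15 H2A windows and in 0 windows of the other classes, and in 570 of all 32851 windows. The H1 box was in 2 of 3 H1 windows, both shown above, and in 2 windows of other members, against 7.18% of all. Neighbouring H2A and H2B genes that are transcribed away from each other share bases of their windows, so their matches are partly counted in both, and no hit of a motif overlapped a hit of another motif in these windows. The windows of Hist2h2aa1 and Hist2h2aa2 share an unbroken run of 219 identical bases, shifted against each other by their annotated starts. That run stops at the end of the Hist2h2aa2 window, just before the TATA box letters of Hist2h2aa1. Whether Hist2h2aa2 has these letters further on is therefore not seen here. In Hist1h4f the TATA box letters are the first bases of the window, 250 bases before the start. Matches are a description of the letters and say nothing about binding.

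The arrays detected 14815 to 16951 probes, with wild type replicate 3 highest. Diaph3 itself (symbol Diap3 on the array) gave signals of 1045, 965 and 969 in wild type and 574, 341 and 486 in knockout mice, without overlap (log2 change -1.12, limma adjusted p = 0.0917). The label of an erythroid fraction was checked against 22 erythroid genes, of which 21 were detected, at a median over genes of their wild type means of 5718. Genes of neutrophils and of other blood cells were detected as well and are given below. Signals as a whole were lower in the knockout mice, with a median log2 change, knockout minus wild type, of -0.11 over 11567 genes and 18.8% of genes above 0. Histone changes are given as measured, and relative to that median where stated. In these bulk samples fewer cells of a type and less RNA per cell cannot be told apart.

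The comparison of knockout and wild type mice asks whether histone transcripts differed with the loss of mDia2. Of 51 canonical histone genes, 41 lay above 0 (80.4%, against the 18.8% of all genes) with a median log2 change of 0.09, or 0.20 relative to all genes. None passed: 0 of 51 had a limma adjusted p under 0.05, where 0.104% of all genes passed, all of them lower in the knockout mice and 0.0% higher. At an unadjusted limma p under 0.05 there were 3 members higher, Hist1h4f, Hist1h2bc and Hist2h3c1, against 1.3% of all genes, and 1 lower, Hist2h2aa1, against 18.6%. The 3 knockout values lay above all wild type values for 8 members (2.01% of all genes) and below them for 2 members (23.2% of all genes). Under quantile normalization 45 members lay above 0, against 53.4% of all genes, and 11 of all genes passed, 4 higher and 7 lower. At an unadjusted limma p under 0.05 that scaling had 14 members higher and 0 lower. With each array centred on its median 48 members lay above 0, against 67.1% of all genes, and 34 genes passed, 11 higher and 23 lower. Centring had 22 members higher and 0 lower at an unadjusted limma p under 0.05. The share of all genes at that p was not counted under either scaling, so the 14 and 22 members have none beside them. Under both scalings 0 members passed the adjusted threshold. Members were not fitted as a group, because they are not replicates, and no exact permutation test of 3 against 3 mice can give a two-sided p below 0.1.

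**Figure D1:**
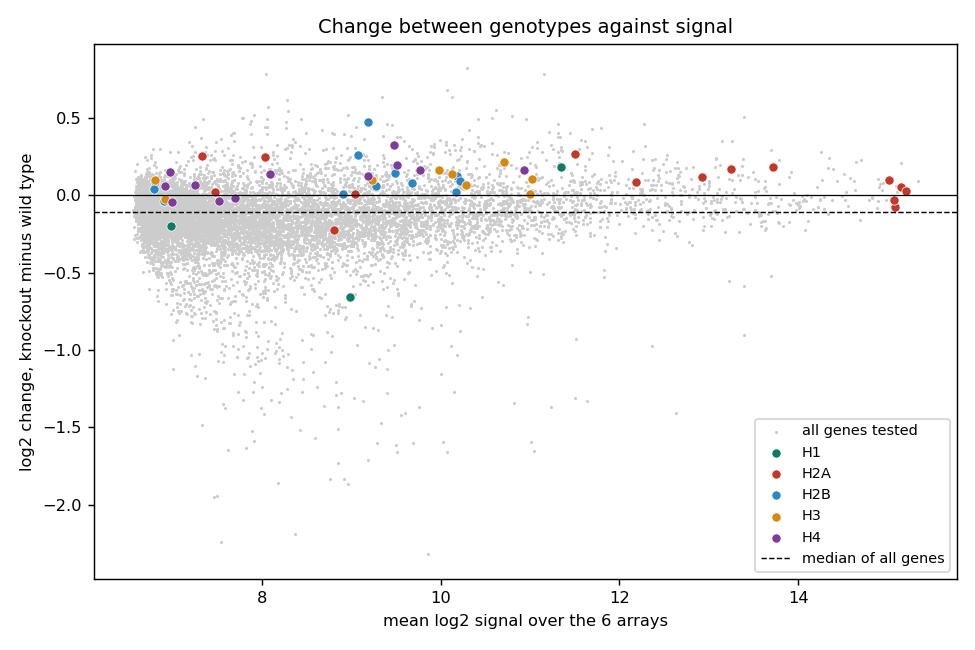
Log2 change, knockout minus wild type, of 11567 genes (grey) and of the 51 canonical histone genes (coloured by class) against the mean log2 signal over the 6 arrays. The dashed line is the median of all genes, -0.11, and 41 histone genes lie above 0.

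Knockout replicate 1 decided the sign of the median over the members. When that mouse was left out, it was -0.0098, or 0.11 relative to all genes, and 25 of 51 members lay above 0, against 16.95% of all genes in the same fit. Averaged over the members, the log2 deviation from the wild type mean was 0.26 in knockout replicate 1, -0.10 in knockout replicate 2 and 0.07 in knockout replicate 3. The wild type mice themselves lay at -0.0050, -0.07 and 0.08, so as measured knockout replicates 2 and 3 were within or next to the wild type spread. The same means over all genes were -0.13, -0.09 and -0.20 in knockout replicates 1, 2 and 3. In the wild type mice they were -0.05, -0.06 and 0.11. Relative to all genes, knockout replicates 1 and 3 thus lay above all wild type mice, and knockout replicate 2 lay among them. Knockout replicate 1 read above all 3 wild type mice for 41 members (14.3% of all genes), knockout replicate 3 for 19 (6.69%) and knockout replicate 2 for 11 (11.7%). Among the 3 knockout mice, replicate 1 was the highest for 44 members (35.9% of all genes) and replicate 2 the lowest for 35 (24.2%). It was the highest of all 6 mice for 37 members (11.7% of all genes), and replicate 2 the lowest of all for 16 (17.1%). Among the wild type mice, replicate 3 was the highest for 32 members (71.8% of all genes) and replicate 2 the lowest for 30 (45.6%).

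**Figure D2:**
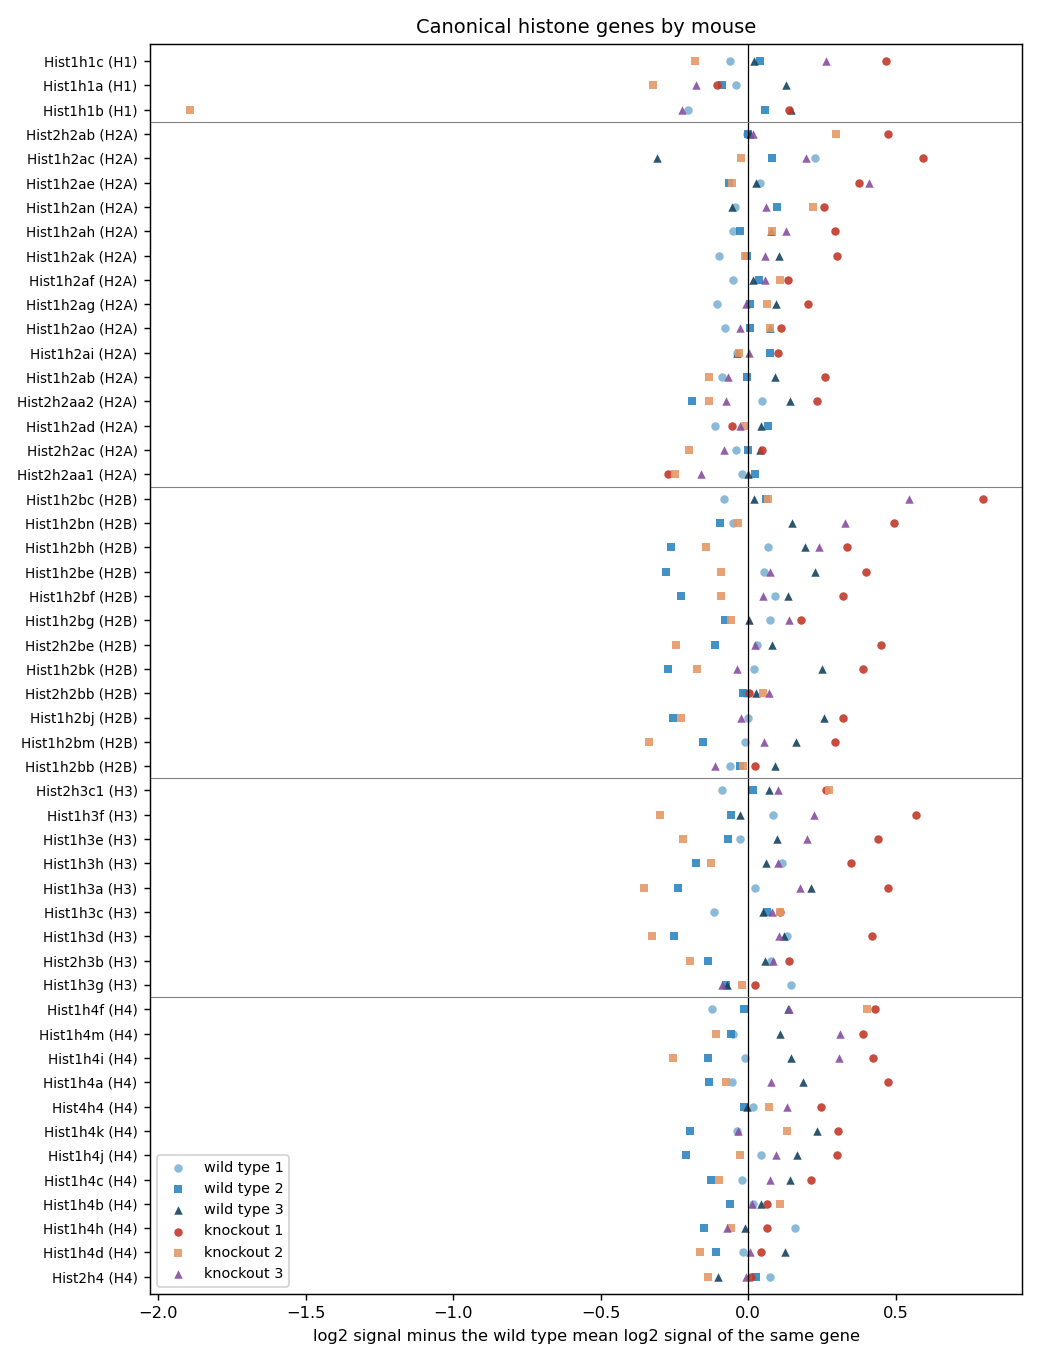
Log2 signal of each mouse minus the wild type mean log2 signal of the same gene, for the 51 canonical histone genes, ordered within class by the difference between genotypes. Circles of knockout replicate 1 lie furthest right in most rows, and the far left square is Hist1h1b in knockout replicate 2, at -1.89.

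The mice also carry animal numbers in a 900 and an 1100 series, whose meaning the labels do not give. Within the 900 series (1 wild type and 2 knockout mice) 38 of 51 members lay above 0 with a median of 0.08. Of all 11567 genes 4696 did, with a median of -0.03. Within the 1100 series (2 wild type mice and 1 knockout mouse) 35 of 51 lay above 0 with a median of 0.05. Of all 11567 genes 1508 did, with a median of -0.19. With the series as a term of the model the median was 0.08, and 0 members passed.

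The linker histones did not share a direction. Hist1h1c, a somatic H1 gene, read 2329, 2503 and 2465 in wild type and 3366, 2147 and 2919 in knockout mice. Knockout replicates 1 and 3 were above and knockout replicate 2 below all wild type values, at a log2 change of 0.18 (SE 0.15, limma adjusted p = 0.529). A second Hist1h1c probe also had knockout replicates 1 and 3 highest and replicate 2 lowest, with a change of 0.22. Hist1h1a, another somatic H1 gene, read 132, 128 and 148 in wild type and 126, 109 and 120 in knockout mice, near the background of about 87 to 89 that undetected probes showed. All 3 knockout values lay below the wild type values, as for 23.2% of all genes, by a small step (log2 change -0.20, SE 0.09, limma adjusted p = 0.291). Relative to all genes the Hist1h1a change was -0.09. The change itself was -0.06 with quantile normalization and -0.025 with centred arrays (limma adjusted p = 0.804 and 0.89). With normexp background correction it was larger, at -0.44 (limma adjusted p = 0.245).

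Hist1h1b, the third somatic H1 gene measured, read 554, 664 and 706 in wild type and 703, 172 and 547 in knockout mice. The low value belonged to knockout replicate 2 alone, which lay 1.67 log2 units below the next lowest mouse, while knockout replicate 1 lay within the wild type range and replicate 3 just below it. The log2 change of -0.66 (SE 0.46, limma adjusted p = 0.455) was -0.04 without that mouse. No other member had a mouse at least 1 log2 unit below all others. In knockout replicate 2, 11 of 11567 genes did so, in the other mice at most 1 gene. The symbol has 1 tested probe here, so no other probe checks the value.

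**Figure D3:**
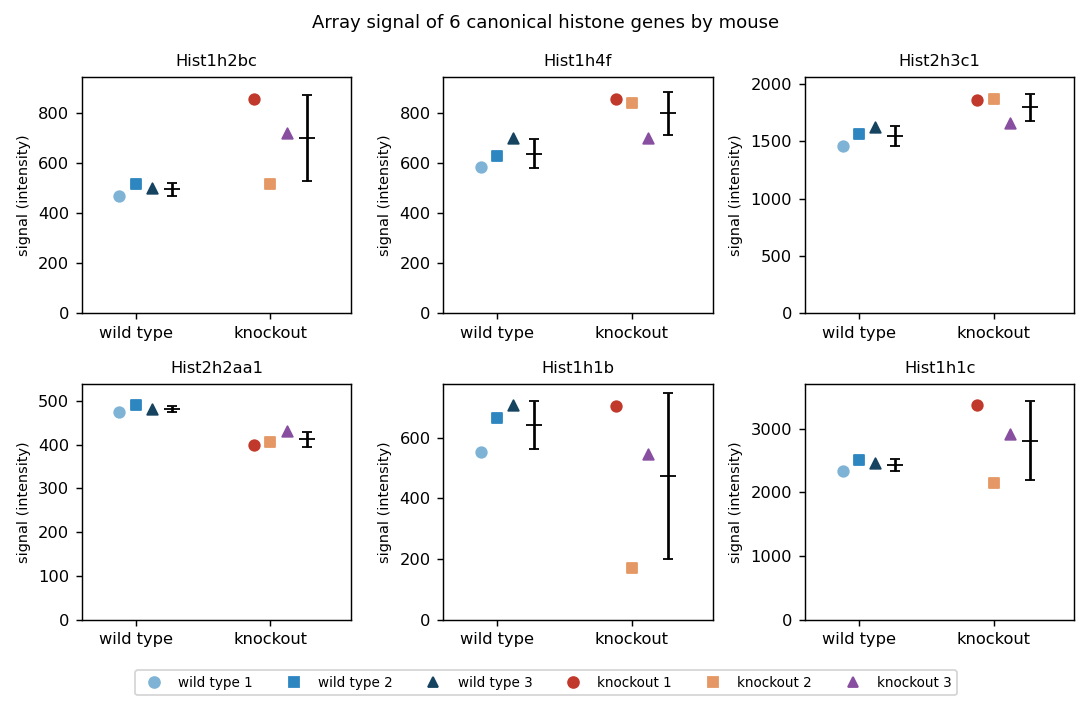
Array signal (intensity, linear axis from 0) of 6 canonical histone genes in each mouse, with the group mean and SD (n = 3) as a bar beside the points. Hist2h2aa1 is lower in all 3 knockout mice, Hist1h4f and Hist2h3c1 are higher in all 3, and Hist1h1b is low only in knockout replicate 2.

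H2A genes had the narrowest spread between mice, with a median residual SD of 0.10 on the log2 scale, and the highest signals. The 5 brightest, Hist1h2ai, Hist2h2ac, Hist1h2ao, Hist1h2ad and Hist1h2af, had wild type means from 32012 to 37510, where the brightest probe of any array read 38726 to 43298. Their log2 changes ran from -0.08 to 0.10. How far signals so near the top of an array's range can still move was not tested. Across the 15 H2A genes the median was 0.09 (0.19 relative to all genes), with 12 above 0, and the class mean was 0.20 in knockout replicate 1, 0.0 in replicate 2 and 0.03 in replicate 3.

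Hist2h2aa1 had the smallest p of the 51 members on the values as deposited, and lay lower in the knockout mice. It read 475, 489 and 481 in wild type and 399, 405 and 431 in knockout mice. The groups did not overlap, and the wild type mice lay close together. The means were 482 ± 7.27 in wild type and 412 ± 17.1 in knockout mice (SD, n = 3 each). The log2 change was -0.23 (SE 0.07, unadjusted p = 0.0130 and limma adjusted p = 0.189), or -0.12 relative to all genes. It was -0.06 with quantile normalization and -0.05 with centred arrays (limma adjusted p = 0.847 and 0.763), and -0.09 as the mean of its probes. The other 2 Hist2h2aa1 probes were dimmer and had changes of -0.06 and 0.02. Hist2h2aa2, the copy with the shared promoter run printed above, read 543, 461 and 581 against 619, 480 and 500, with overlap and a change of 0.01 (limma adjusted p = 0.972).

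Hist2h2ab and Hist1h2an were the next H2A genes by p, both on the high side. Hist2h2ab read 2643, 2651 and 2659 in wild type and 3683, 3259 and 2684 in knockout mice. The wild type values were almost equal and all 3 knockout values lay above them, knockout replicate 3 by the least (log2 change 0.26, SE 0.12, limma adjusted p = 0.272). Hist1h2an read 12292, 13581 and 12222 against 15172, 14788 and 13231. Knockout replicate 3 overlapped the wild type mice and the change was 0.18 (SE 0.09, limma adjusted p = 0.301). Knockout values also lay above all wild type values for Hist1h2ah (log2 change 0.17) and for Hist1h2af (0.10).

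H2B genes varied most between mice among the core histone classes, with a median residual SD of 0.25, against 0.12 over all genes. Their median change was 0.08 (0.19 relative to all genes) with 11 of 12 above 0, and without knockout replicate 1 it was -0.02. Hist1h2bc had the highest log2 change of the 51 members. It read 467, 515 and 501 in wild type and 858, 518 and 722 in knockout mice. Knockout replicates 1 and 3 stood well above the wild type mice, while knockout replicate 2 barely exceeded the highest of them. The means were 495 ± 24.9 and 699 ± 171 (SD, n = 3 each), a log2 change of 0.47 (SE 0.17, unadjusted p = 0.0255 and limma adjusted p = 0.219). Without knockout replicate 2 the change was 0.67 and passed over all probes (limma adjusted p = 0.0381). Without knockout replicate 1 it was 0.31 (limma adjusted p = 0.427), and as the mean of both probes 0.30 (limma adjusted p = 0.218). It was 0.62 with quantile normalization and 0.645 with centred arrays (limma adjusted p = 0.208 and 0.161). The second, dim Hist1h2bc probe read 115 to 121 in the wild type and 125 to 139 in the knockout mice, a change of 0.13. Hist1h2bc is among the histone genes known, from human cells, to give polyadenylated mRNA.

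Hist1h2bn followed by p among the H2B genes. It read 476, 461 and 546 in wild type and 695, 481 and 619 in knockout mice. Knockout replicates 1 and 3 were highest and replicate 2 lay within the wild type range (log2 change 0.26, SE 0.14, limma adjusted p = 0.347). Hist1h2bg, near background, read 114, 102 and 108 against 122, 104 and 119, overlapping, with a change of 0.09 (limma adjusted p = 0.610). The remaining 9 H2B genes had changes from -0.04 to 0.15, and their groups overlapped. Hist2h2be, also known from human cells to be polyadenylated, had a change of 0.08 on its brighter probe and 0.27 on its dimmer probe, where the 3 knockout values of 265 to 315 lay above the wild type values of 231 to 245 (limma adjusted p = 0.190).

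H3 and H4 genes encode the most conserved core histones, and their coding sequences differ little between copies. The 9 H3 genes had a median change of 0.10 with 8 above 0, and the 12 H4 genes a median of 0.13 with 9 above 0. Hist2h3c1 read 1456, 1568 and 1628 in wild type and 1859, 1874 and 1662 in knockout mice. All 3 knockout values lay above the wild type values, replicate 3 narrowly (log2 change 0.21, SE 0.08, unadjusted p = 0.0364 and limma adjusted p = 0.241). Its second probe had a change of 0.17. The change of the brighter probe was 0.30 with quantile normalization and 0.39 with centred arrays (limma adjusted p = 0.150 and 0.0855). Hist1h3c, near background, read 99.0, 112 and 111 against 116, 116 and 114, with no overlap and a change of 0.10 (limma adjusted p = 0.4999). Hist1h3e read 1046, 1017 and 1141 against 1446, 915 and 1225. Here knockout replicate 2 was the lowest and replicate 1 the highest of all mice, and the change of 0.14 (limma adjusted p = 0.643) was -0.01 without replicate 1.

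Hist1h4f was the H4 gene with the smallest p. It read 584, 629 and 698 in wild type and 857, 839 and 700 in knockout mice. The groups touched without overlapping, as knockout replicate 3 barely exceeded wild type replicate 3, and the change was 0.32 (SE 0.11, unadjusted p = 0.0177 and limma adjusted p = 0.20). With quantile normalization the change was 0.47 and with centred arrays 0.50 (limma adjusted p = 0.0802 and 0.0632). The medians of all genes under these scalings were 0.01 and 0.07. The other 2 Hist1h4f probes had changes of 0.36 and 0.17. Hist4h4, the lone H4 gene of the Hist4 cluster and near background, read 121, 118 and 119 against 141, 125 and 131, without overlap (log2 change 0.15, limma adjusted p = 0.319). A second Hist4h4 probe of similar signal read 124, 123 and 124 against 147, 108 and 129, with overlap. Its change was 0.04 (limma adjusted p = 0.881), and that of the mean of both probes 0.09 (limma adjusted p = 0.568). Hist1h4m read 655, 652 and 732 against 889, 629 and 842. Knockout replicate 2 was the lowest and the other knockout mice the highest of the 6, with a change of 0.20 (limma adjusted p = 0.445). The other 9 H4 genes had changes from -0.04 to 0.16 and overlapped between groups.

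**Figure D4:**
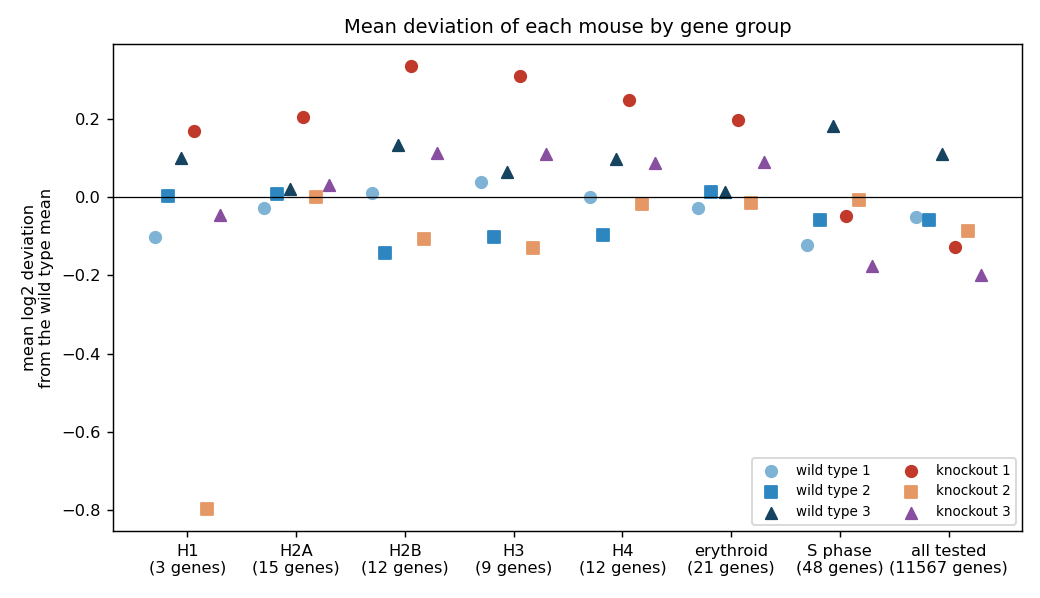
Mean log2 deviation of each mouse from the wild type mean, for each histone class, for erythroid marker genes, for S phase genes and for all genes tested. Knockout replicate 1 is the highest mouse in all 5 histone classes and in the erythroid list, but not in the S phase list.

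Probes of the same symbol mostly had similar changes. Of 20 members with more than 1 tested probe, 16 had all probes on the same side of 0, and in 18 the probes differed by less than 0.2 on the log2 scale. The 2 exceptions were Hist1h2bc (0.13 to 0.47) and Hist2h2aa1 (-0.23 to 0.02). Which transcript ends the probes match is not given in the files, and copies of a class are near-identical, so a probe may also have measured another member of its class. The 8 symbols left out were each detected on at most 1 array, with signals averaging 85.4 to 98.8 over the arrays. They included Hist1h1d and Hist1h1e, the testis genes Hist1h1t, Hist1h2aa and Hist1h2ba, and all 3 Hist3 genes. The dimmest member, Hist1h3c, had a wild type mean of 107 ± 7.30 (SD, n = 3).

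Adjacent H2A and H2B genes can be set side by side, since many are transcribed away from each other from a shared stretch of DNA. In the RefSeq order 8 adjacent pairs had both genes measured, and for 5 of them the promoter table places the genes on opposite strands. It places Hist1h2ab and Hist1h2bb on the same strand, and for the other pairs it lacks a strand. Both changes lay above 0 in 5 of the 8 pairs. Singly, 41 of the 51 members (80.4%) lay above 0, against 18.8% of all genes. Members that are not neighbours would therefore often both lie above 0 too. Hist1h2ac and Hist1h2bc, for which only the Hist1h2ac window was at hand, had changes of 0.25 and 0.47. Hist1h2ac read 172, 155 and 118 against 221, 144 and 168, with overlap (limma adjusted p = 0.472). Hist1h2ak and Hist1h2bn had changes of 0.12 and 0.26, Hist1h2ae and Hist1h2bg of 0.24 and 0.09, and Hist1h2ad and Hist1h2bf of -0.03 and 0.09. No p is attached to these pairs.

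Replacement histones, which are made outside S phase and enter chromatin without replication, lay mostly below 0, as did the genes of the array as a whole. Of 9 measured, 1 lay above 0, where 18.8% of all genes did, the median was -0.17, or -0.06 relative to all genes, and 0 passed. Cenpa, the centromeric H3, read 8768, 9297 and 8654 in wild type and 8317, 7069 and 7989 in knockout mice, without overlap (log2 change -0.20, limma adjusted p = 0.272). H2afv, an H2A.Z gene, had a change of -0.22 without overlap (limma adjusted p = 0.292), and H2afy, macroH2A, of -0.52 with overlap (limma adjusted p = 0.301). H1fx was detected in the 3 wild type mice and in 0 knockout mice, with mean signals of 110 and 93.5. The knockout level was at least 1.12-fold lower (adjusted p = 0.187 in limma). It passed the filter only through the wild type mice, which fixed its direction. H3f3a, a replacement H3 gene, was the member above 0, at 0.11. H2afx, whose mRNA is known in both the stem-loop and the polyadenylated form, read 2537, 2451 and 2139 against 2918, 1321 and 2424, with knockout replicate 1 highest and replicate 2 lowest of all mice. H1f0, the linker histone of differentiated cells, was detected on at most 1 array and was not tested.

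Genes that process histone mRNA or carry histones had medians near that of all genes. For histone mRNA processing 11 of 17 listed symbols were tested, with a median of -0.15, 3 above 0 and 0 passing, and 4 were lower at an unadjusted limma p under 0.05, as were 18.6% of all genes. These were Upf1, the helicase of histone mRNA decay (log2 change -0.28), Cpsf3l, an endonuclease related to the histone cleavage factor (-0.21), Lsm1, a subunit of the mRNA decay ring (-0.19), and the scaffold Sympk (-0.23), each without overlap (23.2% of all genes lay below in this way) and with limma adjusted p from 0.209 to 0.241. Slbp itself has 1 probe on the array, which was detected on 0 arrays. Among 21 histone chaperones 6 lay above 0, the median was -0.08 and 0 passed. Of these Daxx, a chaperone of replacement H3, had a change of -0.27, the H2A and H2B carrier Nap1l1 of -0.25, and the assembly factor subunits Chaf1b and Chaf1a of -0.14 and -0.17 (limma adjusted p from 0.322 to 0.473).

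S phase genes, with which canonical histone mRNA rises in cycling cells, lay above 0 in 9 of 48 cases, close to the 18.8% of all genes, at a median of -0.07, or 0.04 relative to all genes, and 0 passed. By mouse their mean deviation was -0.05, -0.0080 and -0.18 in the knockout mice, and wild type replicate 3 was highest at 0.18, an order unlike that of the histone genes. Within the 900 series 36 of 48 S phase genes lay above 0 at a median of 0.10, beside 4696 of 11567 genes. Within the 1100 series 3 of 48 did at a median of -0.24, beside 1508 of 11567 genes. The DNA polymerase subunits Pold2 (-0.22) and Pole2 (-0.21), the origin licensing factor Cdt1 (-0.17) and the clamp loader Rfc1 (-0.27) had the smallest p (limma adjusted p from 0.212 to 0.331). No test set these lists against the histone genes.

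**Figure D5:**
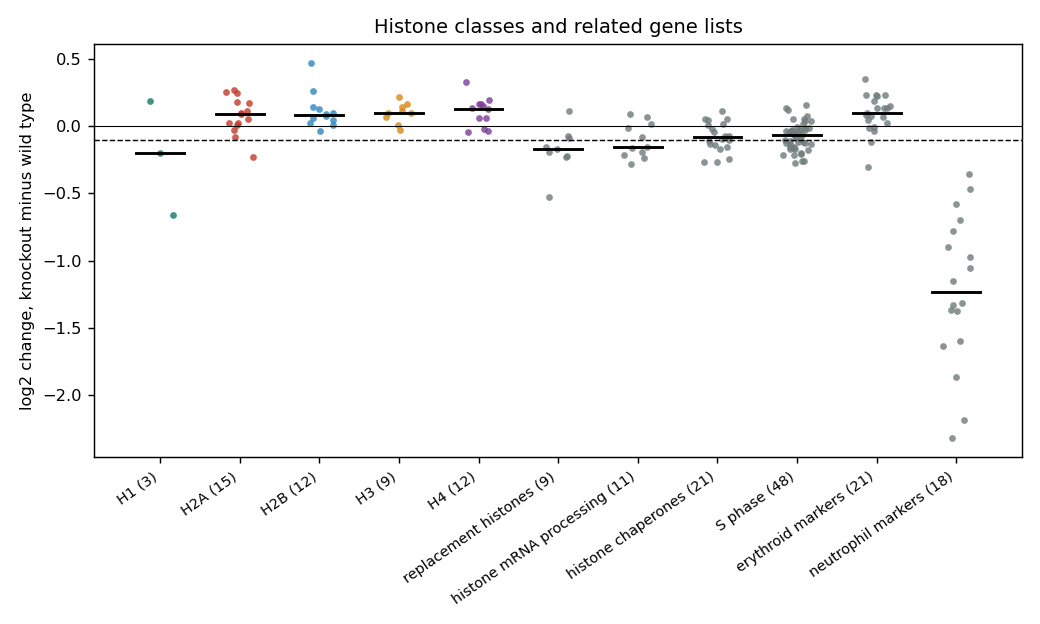
Log2 change, knockout minus wild type, of each gene in the histone classes and in the related lists, with the median as a bar and the number of genes in brackets. The dashed line is the median of all genes, -0.11, and the medians of H2A, H2B, H3, H4 and erythroid genes lie above 0.

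Erythroid marker genes had nearly the same median as the canonical histones, 0.09 with 16 of 21 above 0, and the same order of knockout mice, at 0.20, -0.015 and 0.09. Their summed signal was 223782 to 241173 in the wild type and 241558 to 258009 in the knockout mice. The alpha-globin chaperone Eraf had a change of 0.23 (limma adjusted p = 0.237) and carbonic anhydrase Car1 of -0.30 (limma adjusted p = 0.244), both without overlap between the groups. Markers of other blood cells lay lower in the knockout mice. All 18 tested of 21 neutrophil symbols lay below 0, with a summed signal of 39176 to 55788 in the wild type and 15875 to 27897 in the knockout mice and a median of -1.23. The smallest p belonged to Mmp9 (-1.06), Ngp (-1.60) and Camp (-1.31). All 12 tested of 16 B lineage symbols lay below 0 (summed 2064 to 2341 against 1452 to 1509, median -0.40), and Cd79b (-0.96) and Ly6d (-0.62) passed (limma adjusted p = 0.00383 and 0.0426), with Faim3 at -0.97. All 13 tested of 15 monocyte and macrophage symbols lay below 0 (summed 7740 to 15985 against 3401 to 8429, median -0.68, with mouse means of -1.14, -0.07 and -1.09 in the knockout mice), among them lysozyme under 2 symbols, Lyz2 (-1.65) and Lyzs (-1.47), and Mpeg1 (-1.04). All 9 tested of 12 megakaryocyte symbols lay below 0 (summed 1868 to 2628 against 1521 to 1581, median -0.60), with the smallest p for Ppbp (-1.65), Itga2b (-0.62) and Gp5 (-0.62). Of 9 T and NK symbols 3 were tested (summed 384 to 504 against 359 to 386), Nkg7 (-0.59), Cd3e (-0.04) and Lck (-0.02). Undetected probes read about 87 to 89, so no marker reads 0. Il8rb of the neutrophil list and Gp1bb and Gp6 of the megakaryocyte list were detected only in wild type mice, so the filter fixed their direction. The part of these cells in the histone signals was not tested.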

How the data were processed

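RNA of 6 mice was hybridised to Illumina bead arrays, 1 array per mouse. The deposited table gives normalized intensities on a linear scale and a detection p-value per probe and array, per the file headers. The method by which the authors normalized them is not stated in labels or headers. The table held 45281 probes, and 2 lines without values were left out. The values were taken as deposited, with no further scaling. Symbols of 54 probes had been altered to dates or numbers, and these stayed unnamed.

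Probes with a detection p-value under 0.05 on at least 3 arrays were kept (15743 probes). Log2 intensities were fitted with limma 3.58.1 in R 4.3.3 (lmFit and eBayes, 3 against 3 mice), and p-values were adjusted by Benjamini-Hochberg over all 15743 probes, with a threshold of 0.05. Counts of genes use the probe with the highest mean per symbol. Positive log2 changes are higher in knockout mice. The script was checked on simulated data. The number of arrays limits the precision.

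Values in every mouse are given for the 3 members with the smallest p in each class. Up to 4 genes of each related list and up to 3 of each marker list were named by the same measure, mostly with their log2 changes only, and 1 erythroid gene among these is not reported here. Other genes named beside them, such as Hist2h2aa2, Hist1h2ac, H2afx and the bright H2A genes, were chosen after their values were seen. Members and lists were chosen with earlier results of these data known. Normalization, background, filter, weighting and omission of mice were varied as alternatives. Promoters come from RefSeq on GRCm38.p6, and the array files name no genome build.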

Additional observations from a re-analysis of the deposited data

How the results depend on the processing

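Under every alternative run, 0 of 51 histone genes passed, except that 1 (Hist1h2bc) passed without knockout replicate 2 and 5 passed, all higher (Hist1h2bc, Hist1h2bn, Hist1h4m, Hist1h4i and Hist1h2ae), without wild type replicate 3 and knockout replicate 2 together. Of all 11567 genes 16 passed higher and 136 lower in the first of these fits, and 78 higher and 749 lower in the second. Leaving out 1 mouse at a time gave 0 to 1 histone genes. The histone median of 0.09 was 0.27 with arrays centred on the median of the tested probes, and -0.0098 to 0.176 without 1 mouse at a time. Relative to all genes it was 0.199 both as deposited and with centred arrays. This could not differ, because centring moves the log2 change of every gene by the same amount. The 12 genes of the whole array that passed became 34 with centred arrays, 46 with normexp background correction, 3 when detection on all 6 arrays was required, 105 with an intensity trend, 148 with array weights, 6 with a term for the series of animal numbers, 34 at an adjusted p under 0.1, 827 without the 2 mice named above, and 6 to 152 without 1 mouse at a time, the highest being without knockout replicate 2. The log2 change of Hist1h3e was -0.01 to 0.319 without 1 mouse at a time, lowest without knockout replicate 1, and that of Hist1h1b was 0.032 without the 2 mice together. The cause of these shifts was not tested. Of the other values for single histone genes, 279 kept direction and side of the threshold and 4 passed where they had not before. Part of these could not change direction, because some alternatives leave the log2 changes of these genes as they were. These were no filter on dim probes, detection on all 6 arrays, an intensity trend, a replicate block and a second deposited copy of the same values. With the replicate number as a replicate block 3 genes passed. Deviations of same-numbered mice from their group means correlated at 0.218, -0.278 and -0.188. Such deviations cancel within a group of 3, so these values cannot decide whether the numbers pair the mice. Signals near 87 to 89 are those of undetected probes, so changes of dim members are understated on the log2 scale, and the mice of a group are few.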
